A study of Bos taurus with 6 samples.

Results

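CSRP1, CSRP2, FHL1 and FHL2 encode small LIM-domain proteins that link the actin cytoskeleton to adhesion sites and to the nucleus. They were taken as every probe set of the array that the annotation gives to one of these 4 symbols. Each gene had a single probe set, so the group holds 4 of the 24016 probe sets measured and 4 of the 9155 genes that these name. The set was picked with the difference between treated and untreated cultures in view, and FHL1 was set against FHL2, and CSRP2 against CSRP1, on the same values. Those differences are therefore given as a description, with standard errors and intervals that show the spread between arrays, and no test is read from them.

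RNA came from primary bovine aortic endothelial cells, released from the aorta by collagenase and grown in RPMI medium. The TGFB1 group (n = 3 arrays) received TGF-beta 1 at 5 ng/ml for 24 hours, and the basal group (n = 3) was left untreated. The labels speak of triplicates from different cultures and do not tie a treated culture to an untreated one, name an animal or say whether cultures were pooled. Any p-value thus measures the spread between these arrays, which may be technical in part. Each value is a log2 expression level of 1 probe set on an Affymetrix bovine array, so a difference of 1 is a doubling.

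A LIM domain is a zinc-binding fold that binds other proteins and, in most LIM proteins, does not bind DNA. The CSRP proteins (cysteine and glycine rich proteins) bind alpha-actinin and zyxin on actin bundles. In vertebrate cell models they also act in the nucleus as bridging cofactors between SRF and GATA factors at smooth muscle promoters. CSRP1 is broadly expressed, whereas CSRP2 is best known from arterial smooth muscle. The FHL proteins consist almost wholly of LIM domains. FHL1 is abundant in skeletal muscle, where mutations in people cause myopathies, and FHL2 is abundant in heart and binds integrins, beta-catenin and several transcription factors.

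The labelled cell type was checked against its markers. Of 9 endothelial markers measured, 8 lay above the array median in all 6 arrays. So did 3 of 6 smooth muscle, 3 of 7 skeletal and cardiac muscle, 2 of 8 fibroblast and 1 of 7 leukocyte markers. A level above the median thus does not by itself mark a cell type. VWF, 1 of the 8, lay at 5.99 to 6.05 in TGFB1 arrays and 6.05 to 6.33 in basal arrays, near the array medians of 5.88 to 5.92. PECAM1 and CDH5, junction proteins of endothelium, averaged 11.77 and 11.53 log2 in TGFB1 arrays, against 12.29 and 12.10 in basal arrays, while KDR, a VEGF receptor, averaged 4.46 in TGFB1 arrays and 5.14 in basal arrays. The arrays did not separate by treatment alone. On the first principal component, which held 63.4% of the variance, TGFB1 1 lay at -10.3, TGFB1 2 at 39.5 and TGFB1 3 at 41.4, against -67.8, -38.8 and 36.0 for basal 1, basal 2 and basal 3. Basal 3 thus lay beside TGFB1 2 and TGFB1 3. TGFB1 1 lay on the negative side with basal 1 and basal 2. It was nearest to basal 2, yet farther from basal 1 than from basal 3. The split by sign on this component is followed through the results below as a pair of array sets. These sets were defined from the data and not by the labels. Since they came from the same values, calls and intervals with the sets as a block are description only.

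The FHL genes moved in opposite directions. FHL1 (Entrez gene 509056) lay at 9.06, 8.95 and 9.01 log2 in the TGFB1 arrays, against 10.16, 10.03 and 10.21 in the basal arrays. The highest treated array was 0.97 below the lowest basal array, and neither group spread over more than 0.19. The means were 9.005 ± 0.058 in TGFB1 arrays and 10.13 ± 0.095 in basal arrays (SD, n = 3 each). FHL1 was thus 2.18-fold lower after TGF-beta 1, with a 95% interval of 1.87 to 2.55 (log2 difference -1.13, SE 0.09).

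FHL2 (Entrez gene 510008) lay at 9.27, 8.98 and 8.89 log2 in the TGFB1 arrays, against 7.83, 7.86 and 8.05 in the basal arrays. Every treated array was above every basal array, the nearest being 0.84 apart. The means were 9.045 ± 0.196 in TGFB1 arrays and 7.913 ± 0.118 in basal arrays (SD, n = 3 each), a 2.19-fold higher level with a 95% interval of 1.75 to 2.74 (log2 difference 1.13, SE 0.13).

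**Figure D1:**
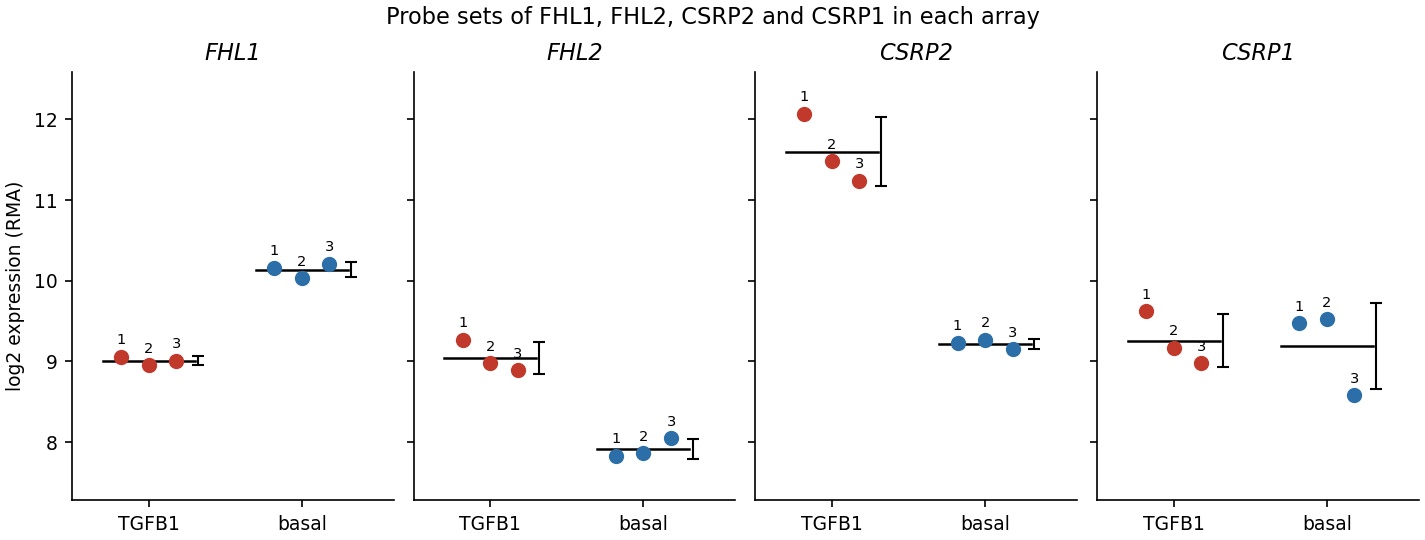
Log2 expression (RMA) of the probe sets of FHL1, FHL2, CSRP2 and CSRP1 in each array, TGFB1 in red and basal in blue, numbered by replicate, with the group mean (line) and SD (bar, n = 3). FHL1 is lower and FHL2 and CSRP2 are higher in all 3 TGFB1 arrays, and CSRP1 overlaps between the groups. Brightness differs between probe sets, so heights are to be compared within a panel only.

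A probe set has its own brightness, so a level of one gene cannot be set against that of another. The gap between 2 probe sets within an array can be followed across arrays, since a shift of the whole array cancels in it. The FHL1 probe set stood above that of FHL2 by -0.20, -0.03 and 0.12 log2 in the TGFB1 arrays, against 2.32, 2.17 and 2.16 in the basal arrays. It was smaller in every treated array than in any basal array. It averaged -0.04 ± 0.16 in TGFB1 arrays and 2.22 ± 0.09 in basal arrays (SD, n = 3 each), a change of -2.26 log2, or a 4.78-fold lower ratio of FHL1 to FHL2. Leaving out any 1 array kept this change between -2.34 and -2.18.

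CSRP2 had the largest difference of the 4 genes. It lay (Entrez gene 539381) at 12.07, 11.48 and 11.24 log2 in the TGFB1 arrays, against 9.23, 9.27 and 9.15 in the basal arrays. The basal arrays lay within 0.11 of each other and the treated arrays within 0.83, and the groups were 1.97 apart at their nearest. The means were 11.60 ± 0.428 in TGFB1 arrays and 9.219 ± 0.058 in basal arrays (SD, n = 3 each). The difference was 5.19-fold, with a 95% interval of 3.59 to 7.51 (log2 difference 2.38, SE 0.22), and 24 of the other probe sets had a higher one. FHL2 and FHL1 stood less far out, with 350 probe sets above the difference of FHL2 and 221 below that of FHL1.

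CSRP1, the close relative of CSRP2, did not separate the groups. Its probe set (Entrez gene 615329) lay at 9.62, 9.17 and 8.98 log2 in the TGFB1 arrays, against 9.47, 9.52 and 8.58 in the basal arrays. The highest value was in a treated array and the lowest in basal 3. The means were 9.255 ± 0.328 in TGFB1 arrays and 9.191 ± 0.534 in basal arrays (SD, n = 3 each). The log2 difference was 0.06 with a 95% interval of -0.68 to 0.81, which holds changes from 1.61-fold lower to 1.76-fold higher, so the arrays do not show that CSRP1 kept its level.

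The CSRP2 probe set stood above that of CSRP1 by 2.45, 2.31 and 2.26 log2 in the TGFB1 arrays, against -0.24, -0.26 and 0.58 in the basal arrays. The treated arrays agreed closely and basal 3 stood apart from the other basal arrays, since CSRP1 was low there while CSRP2 was not. The gap averaged 2.34 ± 0.10 in TGFB1 arrays and 0.03 ± 0.48 in basal arrays (SD, n = 3 each), a change of 2.31 log2, or a 4.97-fold higher ratio of CSRP2 to CSRP1. Over the fits without 1 array it ran from 2.17 to 2.59. The 2 genes with higher levels also differed in size, and the gap of CSRP2 over FHL2 was 2.55 ± 0.23 log2 in TGFB1 arrays and 1.31 ± 0.17 in basal arrays (SD, n = 3 each), again without overlap.

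**Figure D2:**
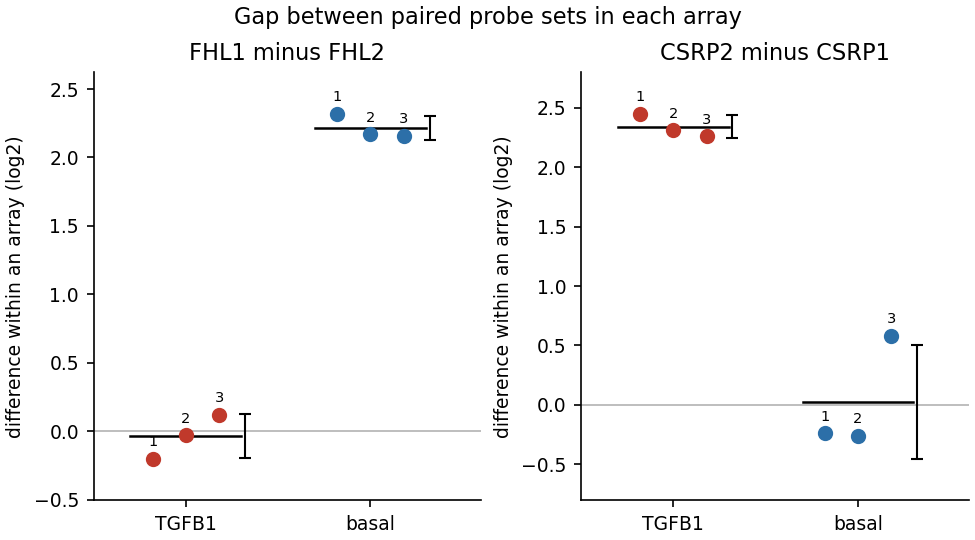
Difference in log2 expression between paired probe sets within each array, FHL1 minus FHL2 on the left and CSRP2 minus CSRP1 on the right, TGFB1 in red and basal in blue, numbered by replicate, with mean (line) and SD (bar, n = 3). The FHL gap lies near 0 in TGFB1 arrays and above 2.1 in basal arrays. The CSRP gap is above 2.2 in TGFB1 arrays, and basal 3 is the highest of the basal arrays at 0.58.

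The spread within groups also differed among the 4 genes. The pooled within-group SD was 0.079 log2 for FHL1, 0.162 for FHL2, 0.305 for CSRP2 and 0.443 for CSRP1, against a median of 0.175 over all probe sets. FHL1 was thus at the 11.7th percentile of spread and CSRP1 at the 85.4th. TGFB1 1 was the highest treated array for all 4 genes, and the array sets named above ran through CSRP1. CSRP1 lay at 9.62, 9.47 and 9.52 in TGFB1 1, basal 1 and basal 2, and at 9.17, 8.98 and 8.58 in TGFB1 2, TGFB1 3 and basal 3.

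Within each array set the direction of FHL1, FHL2 and CSRP2 was the same. Any split with both groups in each set would give this, since the groups did not overlap in these genes. In the set of TGFB1 1 with basal 1 and basal 2 the log2 differences were -1.03 for FHL1, 1.42 for FHL2 and 2.82 for CSRP2. In the set of TGFB1 2 and TGFB1 3 with basal 3 they were -1.24, 0.89 and 2.20 in the same order of genes. For CSRP1 they were 0.12 and 0.50, and with the sets as a block its difference was 0.31 (95% interval 0.01 to 0.60). The sign of the CSRP1 difference depended on single arrays, being -0.24 without basal 3 and -0.12 without TGFB1 1.

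Leaving out single arrays moved these differences little. Over the 6 fits without 1 array the log2 difference ran from -1.18 to -1.09 for FHL1, from 1.02 to 1.21 for FHL2 and from 2.14 to 2.55 for CSRP2. The groups did not overlap in 3 of the 4 genes, against 19.2% of all probe sets (7.61% higher, 11.6% lower). In the limma fit over all 24016 probe sets, with Benjamini-Hochberg adjustment and a threshold of 0.05, 0.658% were called, 0.304% as higher and 0.354% as lower. Since FHL1, FHL2, CSRP2 and CSRP1 were chosen on this contrast, nothing is read from their count against these shares, and the fit serves below for the other genes. The number of calls over all probe sets depended on single arrays. It was 2, 1, 1 and 1 without basal 1, basal 2, TGFB1 2 or TGFB1 3, then 12 without TGFB1 1 and 2012 without basal 3, against 158 with all arrays.

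**Figure D3:**
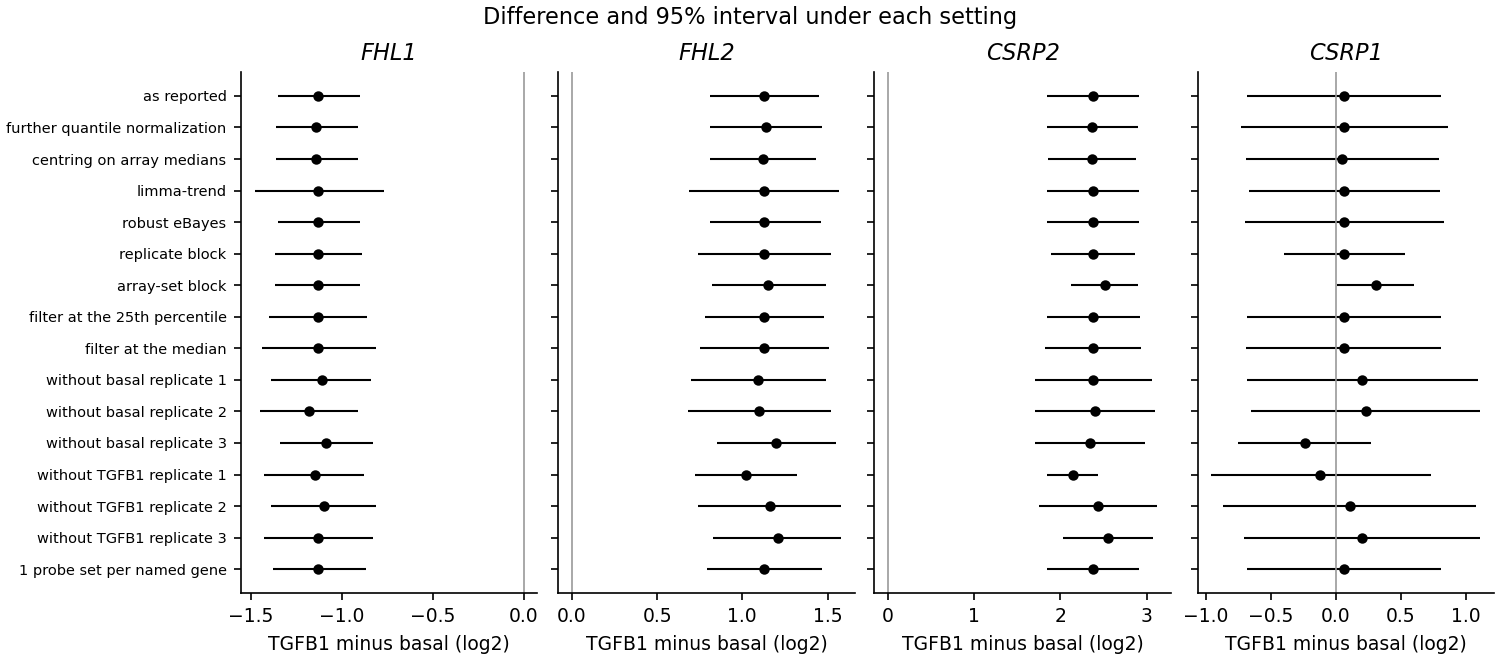
Log2 difference (TGFB1 minus basal) with its 95% interval for FHL1, FHL2, CSRP2 and CSRP1 under each way of processing. The differences of FHL1, FHL2 and CSRP2 stay on 1 side of 0 throughout, and that of CSRP1 lies between -0.24 and 0.31.

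Genes whose levels followed each of the 4 across arrays were sought among the 3576 other named genes with an SD of at least 0.3 over the 6 arrays. Pearson correlations over 6 arrays describe likeness only, since all genes share the same arrays and the treatment. CSRP2 was most like SELE (r = 0.994), the E-selectin of activated endothelium, MYO10 (0.994), a myosin of filopodia, SLAMF9 (0.993) and VEGFA (0.993), the angiogenic growth factor. FHL2 was also most like SELE (0.996), followed by F2RL1 (0.993), a protease-activated receptor, BPNT2 (0.993) and the chemokine CXCL12 (0.992). Log2 differences were 3.23 for SELE, 2.92 for VEGFA, 3.11 for CXCL12, 2.07 for F2RL1, 1.22 for MYO10, 1.21 for SLAMF9 and 0.99 for BPNT2. The shared direction comes with their choice by likeness to CSRP2 and FHL2, which were themselves chosen on this contrast.

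FHL1 was most like ARHGEF39 (r = 0.989), S100A10 (0.985), a plasminogen-binding partner of annexin, UBE2T (0.982), a ubiquitin-conjugating enzyme, and STMN1 (0.982), which destabilises microtubules. Their log2 differences were -0.95, -0.83, -0.64 and -0.99 in that order, a direction that their choice by likeness to FHL1 brings with it. CSRP1 was most like MFGE8 (0.998), a secreted glycoprotein, IRF7 (0.993), a transcription factor of the interferon response, RNF126 (0.992) and the endothelial nitric oxide synthase NOS3 (0.991). These genes had differences between 0.01 and 0.11 log2, a small size that their choice by likeness to CSRP1 brings with it.

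Among the nearest relatives no gene was called. Of 8 LIM-only genes listed, 4 were measured, and limma called none and gave none an unadjusted p under 0.05. Among named genes 1.02% were called, 0.371% as higher and 0.644% as lower, 18.4% had an unadjusted p under 0.05 (6.19% higher, 12.2% lower), and in 23.3% the groups did not overlap (8.18% higher, 15.1% lower). FHL3, the third FHL gene measured, lay at 9.48, 9.18 and 9.36 log2 in the TGFB1 arrays, against 9.85, 10.09 and 9.03 in the basal arrays. The groups overlapped and the difference was -0.32 (SE 0.28, limma adjusted p = 0.701). It ran from -0.63 without basal 3 to -0.10 without basal 2, and within the array sets it was -0.49 in that of TGFB1 1 and 0.24 in that of basal 3. CRIP2, a CSRP relative of the vascular wall and heart, averaged 9.922 log2 in TGFB1 arrays and 10.18 in basal arrays (difference -0.26, SE 0.29, limma adjusted p = 0.760). That difference was -0.55 without basal 3, -0.43 without TGFB1 1, -0.10 without basal 2 and -0.03 with a block term for the array split.

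LMCD1, a LIM protein that restrains GATA6, lay at 8.33, 7.18 and 6.88 log2 in the TGFB1 arrays, against 9.17, 9.08 and 7.51 in the basal arrays. Its difference of -1.12 (SE 0.57, limma adjusted p = 0.478) was as large as that of FHL1 with a far wider SE, and basal 3 lay among the treated arrays. It ran from -1.66 without basal 3 to -0.83 without basal 1 or TGFB1 3. A block term for the array split gave -0.64 and a limma call (adjusted p = 0.0464, and no more than 0.834 in any alternative). The split came from these same values, so this call and those like it below are no evidence of a change. CSRP3 and FHL5 were not analysed here.

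Zyxin, paxillin and PINCH proteins are the LIM proteins of focal adhesions, and ZYX itself is a binding partner of CSRP1. Of 5 measured of 12 listed, none was called by limma and none had an unadjusted p under 0.05. ZYX lay at 10.98, 9.91 and 9.76 log2 in the TGFB1 arrays, against 10.08, 10.43 and 9.18 in the basal arrays, and the groups overlapped. Its difference was 0.32 (SE 0.45, limma adjusted p = 0.820). It was 0.72 in the array set of TGFB1 1 and 0.66 in that of basal 3, and a block term for the split gave 0.69 and a limma call (adjusted p = 0.0349, and no more than 0.963 in any alternative). Without basal 3 and without TGFB1 1 it was -0.04 and -0.06, and without basal 2 it was 0.59. LIMS2, a PINCH adaptor of integrin-linked kinase, stood at 0.22 (SE 0.25), and FBLIM1, which binds filamin at adhesions, at -0.09 (SE 0.25).

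The proteins that join a PDZ domain to LIM domains sit on actin filaments through alpha-actinin. None of 7 measured genes of 8 listed was called by limma, and 1 higher and 1 lower gene had an unadjusted p under 0.05, 2 of 7 against 18.4% of named genes. PDLIM4 lay at 6.51, 6.47 and 6.24 log2 in the TGFB1 arrays, against 7.13, 6.98 and 7.16 in the basal arrays, without overlap. Its difference of -0.68 (SE 0.11) missed the threshold (limma adjusted p = 0.0711) and passed it without basal 3 (-0.65, adjusted p = 0.0426) and with the split as a block term (-0.68, adjusted p = 0.0315, and no more than 0.278 in any alternative). PDLIM7 went the other way, at 8.27, 8.20 and 8.06 in the TGFB1 arrays, against 7.91, 7.72 and 7.64 in the basal arrays. The groups did not overlap and the difference was 0.42 (SE 0.11, limma adjusted p = 0.179), with the same sign in both of its other probe sets. PDLIM2 stood at -0.37 (SE 0.21) and passed without basal 3 at -0.60 (limma adjusted p = 0.0294, and no more than 0.860 in any alternative).

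Other actin-linked LIM proteins gave 11 measured genes of 17 listed and no limma call, with 1 gene on either side at an unadjusted p under 0.05, a share near the 18.4% of named genes. LASP1, an adaptor of focal adhesions, lay at 11.45, 11.40 and 11.41 log2 in the TGFB1 arrays, against 12.03, 11.94 and 11.54 in the basal arrays. Its difference was -0.42 (SE 0.15, limma adjusted p = 0.291), and without basal 3 it passed at -0.57 (0.0294, and no more than 0.667 in any alternative). PRICKLE1, of the planar polarity pathway, stood at 0.55 (SE 0.21, limma adjusted p = 0.334) and 0.70 with a block term for the split, where it passed (0.0479, and no more than 0.678 in any alternative). MICAL1, an enzyme that oxidises actin, stood at -0.34 (SE 0.18).

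Among nuclear LIM proteins 3 of 18 listed were measured. LMO2, a partner of TAL1 and GATA factors in endothelial and blood cells, was the 1 called by limma, as lower. It lay at 9.32, 9.05 and 9.18 log2 in the TGFB1 arrays, against 11.23, 11.20 and 10.59 in the basal arrays, with no overlap. LMO2 was 3.54-fold lower (log2 difference -1.82, SE 0.20, limma adjusted p = 0.0376), and its other probe set had the same sign. The call ended without any 1 of the arrays other than basal 3, with adjusted p from 0.00523 to 0.248 over all alternatives. LMO4 stood at 0.63 (SE 0.35) and at 0.92 with a block term for the split, where it passed (limma adjusted p = 0.0159, and no more than 0.755 in any alternative). Without TGFB1 1 it stood at 0.28, and without basal 3 at 0.42. LHX3, a pituitary and motor neuron factor, stood at -0.08 (SE 0.11).

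Over the 30 measured LIM-domain genes besides CSRP1, CSRP2, FHL1 and FHL2, limma called none as higher and 1 as lower. Named genes were called in 0.371% and 0.644%. At an unadjusted p under 0.05 were 2 higher and 3 lower, against 6.19% and 12.2% of named genes. The groups did not overlap in 4 of them, 1 higher and 3 lower, or 13.3% against 23.3% of all named genes. Their median log2 difference was -0.07, against -0.03 over all named genes, and 3 exceeded 1 log2 in size, all as lower. These were LMO2, LMCD1 and the actin-linked ABLIM1. ABLIM1 stood at -1.20 (SE 0.67, limma adjusted p = 0.516), and its groups overlapped. A further 33 listed LIM genes were not analysed here.

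**Figure D4:**
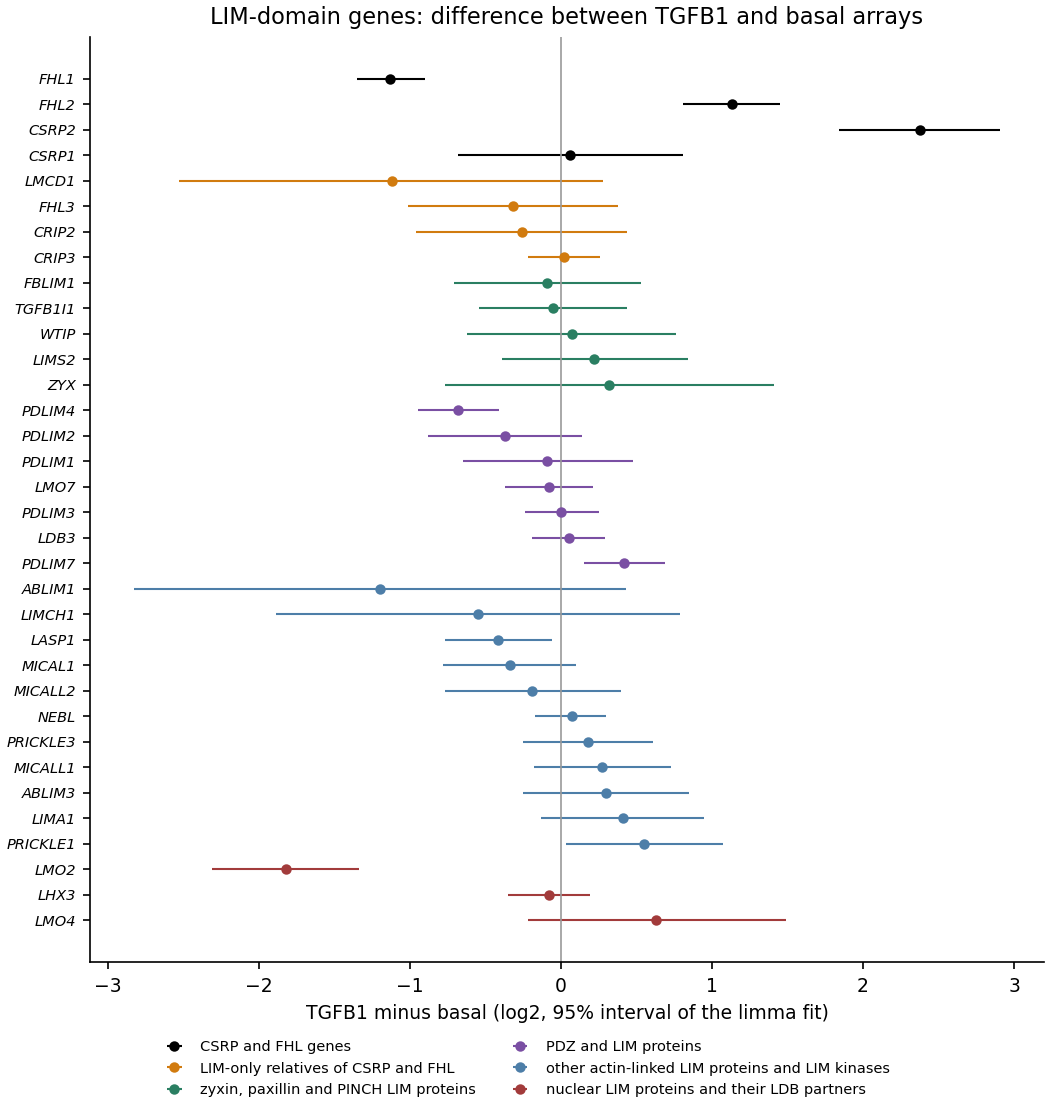
Log2 difference between TGFB1 and basal arrays with the 95% interval of the limma fit, for CSRP and FHL genes (top, black) and 30 other LIM-domain genes coloured by family. FHL2 and CSRP2 lie at 1.13 and 2.38, and the highest of the other LIM genes is LMO4 at 0.63 (0.28 without TGFB1 1, 0.92 with the array split as a block term). LMO2 at -1.82 is the 1 other gene that passed the threshold.

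Binding partners known for CSRP and FHL proteins held no limma call among 17 measured of 21 listed, with 3 higher and 2 lower at an unadjusted p under 0.05, where named genes had 18.4%, and a median of -0.04 log2. SPHK1, a sphingosine kinase that FHL2 binds, lay at 7.86, 7.36 and 7.15 log2 in the TGFB1 arrays, against 6.62, 6.70 and 6.56 in the basal arrays. The difference of 0.83 (SE 0.19) missed the threshold (limma adjusted p = 0.131) and passed it with a block term for the split (0.95, adjusted p = 0.0214, and no more than 0.370 in any alternative). ACTN1, the alpha-actinin that CSRP proteins bind, stood at 0.31 (SE 0.14, limma adjusted p = 0.427). Its treated arrays lay above the basal arrays only narrowly, with TGFB1 3 at 11.60 and basal 1 at 11.59. The groups did not overlap in 23.3% of named genes. GATA6 stood at -0.64 (SE 0.20), passing without basal 3 at -0.85 (limma adjusted p = 0.0215, and no more than 0.617 in any alternative), and CREB1 at 0.39 (SE 0.12). SRF, the partner of CSRP proteins at smooth muscle promoters, lay at 6.56, 6.12 and 6.27 in the TGFB1 arrays, against 6.39, 6.39 and 6.15 in the basal arrays (difference 0.01, SE 0.15).

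Genes that SRF and actin dynamics regulate gave 1 limma call, as higher, among 21 measured of 26 listed, with a median of 0.05 log2. Of named genes 1.02% were called. At an unadjusted p under 0.05 were 5 higher and 1 lower, against 6.19% and 12.2% of named genes. The groups did not overlap in 6 higher and 1 lower, or 33.3% against 23.3% of named genes. The list was chosen with earlier results of these data known, so nothing is read from these shares. TAGLN (transgelin), which binds actin in contractile cells, lay at 12.18, 12.33 and 11.92 log2 in the TGFB1 arrays, against 9.90, 9.78 and 10.18 in the basal arrays. It rose 4.56-fold (log2 difference 2.19, SE 0.16, limma adjusted p = 0.0273, from 0.00523 to 0.168 over its alternatives), close in size to the difference of CSRP2. That call ended on leaving out any 1 array other than basal 3. The tropomyosins TPM1 and TPM4 stood at 0.67 (SE 0.22) and 0.47 (SE 0.11), with no overlap between the groups and limma adjusted p = 0.254 and 0.145. TPM1 passed without basal 3 at 0.90 (limma adjusted p = 0.0204, and no more than 0.617 in any alternative).

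CSRP2, and in part FHL1 and FHL2, are also genes of muscle cells, so markers of other cell types were set beside them. In bulk RNA, fewer cells of a type and less RNA per cell cannot be told apart. Of 6 smooth muscle markers measured of 9 listed, none was called by limma. Their mean log2 level lay between 6.07 and 6.18 in TGFB1 arrays and between 6.10 and 6.16 in basal arrays. MYH11, the smooth muscle myosin, averaged 4.698 in TGFB1 arrays and 4.801 in basal arrays, below the array medians of 5.88 to 5.92, and CNN1, calponin, averaged 5.462 in TGFB1 arrays and 5.369 in basal arrays. SMTN, DES and ACTA2 lay above the array median in all 6 arrays. TAGLN and CALD1, which smooth muscle also expresses strongly, are counted with the SRF list above, where TAGLN rose. CALD1, chosen after its values were seen, averaged 8.882 in TGFB1 arrays and 7.841 in basal arrays (difference 1.04, SE 0.34, limma adjusted p = 0.258). The actin gene ACTA2 followed the array sets, at 6.77, 7.94 and 7.90 in the TGFB1 arrays, against 6.95, 7.08 and 7.97 in the basal arrays. Skeletal and cardiac muscle markers (7 measured) had a mean level of 5.83 to 6.07 in TGFB1 arrays and 5.93 to 6.15 in basal arrays. Fibroblast markers (8 measured) lay at 5.49 to 5.65 in TGFB1 arrays and at 5.47 to 5.59 in basal arrays. Leukocyte markers (7 measured) lay at 4.79 to 4.88 in TGFB1 arrays and at 4.72 to 4.89 in basal arrays. MYOD1, MYH7, ACTC1, COL1A1, COL3A1 and CD14 of these lists also lay above the array median in all 6 arrays. Limma called none of the markers in these lists of other cell types. The endothelial markers had a mean level of 8.79 to 8.89 in TGFB1 arrays and 9.28 to 9.77 in basal arrays, and CLDN5 was the 1 of them that was called, as lower. Any part of these levels in the differences of CSRP2, FHL1 and FHL2 was not tested.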

How the data were processed

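The deposited values are log2 expression per probe set. The submitters' processing notes name RMA and affy for them, with versions not given. RMA removes background, equalises array distributions by quantiles and summarises probes, which compresses changes near background and gives no detection call. The deposited table held 24128 probe sets, and 112 AFFX controls were left out. The array annotation gave 1 symbol for 13292 of the rest, several for 86 and none for 10638, and 13263 symbols, with all 4 genes described here, matched the RefSeq table of assembly ARS-UCD2.0 by gene identifier. Coordinates are not printed because the annotation names no build. Precision is limited by the number of arrays.

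The comparison used limma 3.58.1 under R 4.3.3 (lmFit, eBayes, group as the only term, two-sided, Benjamini-Hochberg over 24016 probe sets, threshold 0.05). Standard errors and 95% intervals are those of this fit. The code was also tried on simulated arrays with independent noise and no array sets, which does not bear on how far the calls hold. A gene with several probe sets is shown by the one with the highest mean, which gave 9155 named genes. The genes, lists and tests were chosen with earlier results of these data known. Named from each of 7 lists are the genes called and the 3 with the smallest p, with CSRP3, FHL3, FHL5, SRF, ACTN1 and ZYX always, and for each of the 4 genes the 4 others with the highest correlation. Cell type markers named singly, and ABLIM1, fall outside this rule and were chosen after their values were seen. Alternatives were a further quantile normalization, median centring, limma-trend, robust eBayes, the replicate number or the array sets as a block, dropping probe sets below the 25th percentile or the median of expression, thresholds of 0.1 and 0.01, 1 probe set per gene, and leaving out each array. Plots were made with matplotlib 3.10.9 in Python 3.11.15.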

Additional observations from a re-analysis of the deposited data

How the results depend on the processing

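The log2 differences of FHL1, FHL2 and CSRP2 and both pair differences kept their direction and stayed within 1 within-group SD under every alternative run. Leaving out an array could not reverse them, since the groups did not overlap. Limma-trend, robust eBayes, the replicate block, the filters and the thresholds leave a difference as it is. Averaging all probe sets of a gene changed nothing, since each has 1. CSRP1 ran from -0.24 to 0.23 over the fits without 1 array. Calls were less stable, and the cause was not tested. Of all probe sets 158 were called, against 100 after a further quantile normalization, 87 by limma-trend (where FHL2 was not called), 1348 with the array sets as a block, 543 at a threshold of 0.1 and 2 at 0.01, and from 1 to 2012 without 1 array. Of the 4 genes, chosen on this contrast so that their calls are no evidence, 3 were called, against 0 at 0.01 and from 0 to 3 without 1 array. Of the 68 list genes 2 were called, against 9 with the array sets as a block, 0 at 0.01, and from 0 to 11 without 1 array. The array sets were defined from the data, so calls with them as a block are no test. The fit without basal 3 mixes the sets with treatment.

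Groups share replicate numbers, but the labels do not say that a number marks a shared culture, so the numbers were not taken to pair cultures. Deviations from the group means correlated at 0.67, -0.45 and 0.69 for numbers 1, 2 and 3. With 3 arrays in a group and the array split in these deviations, they cannot settle whether the numbers pair cultures. With the replicate block limma called 0 probe sets of all (4450 at an unadjusted p under 0.05), 0 of the 4 genes (3) and 0 of the list genes (24).

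Among the 23 other genes named from the lists by the rule above, 9 of 343 values changed sign, all in ZYX, FBLIM1, SRF or LIMS2. SRF stood at 0 after centring and FBLIM1 at 0.10 with the array-set block. Without 1 array ZYX ran from -0.06 to 0.59, FBLIM1 from -0.36 to 0.06, SRF from -0.11 to 0.11 and LIMS2 from -0.01 to 0.38. The 12 calls lost were those of LMO2 and TAGLN.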
